A study of Mus musculus with 4 samples.

Results

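Regulators of G protein signalling (Rgs proteins) were examined in plated rib chondrocytes, the cells that make cartilage matrix. The 10 genes described are Rgs2, Rgs3, Rgs4, Rgs5, Rgs10, Rgs12, Rgs14, Rgs16, Rgs17 and Rgs19, out of 20 numbered Rgs genes and 17575 entries listed in the deposited tables. They were chosen by gene name from the Rgs family, with earlier results of the knockout against wild type contrast known, and which values settled the choice of 10 from the family is not recorded. Their fold changes and p-values are therefore given as a description. Ribs of C57/Bl6 mice aged 10 days were digested with collagenase overnight, the freed cells were filtered and plated, and their RNA was sequenced. 2 libraries were from wild type mice. The 2 called knockout here were from mice with Kdm6b(fl/fl) and Kdm6a(fl/fl) alleles and the transgene Col2Cre(Tg), in which Cre recombinase under a type II collagen promoter acts on both loxP-flanked genes. The wild type mice are not stated to carry the Cre transgene or the loxP alleles, so the transgene and the deletion cannot be told apart. Triplicates are mentioned in the series' design text, while the series holds 2 libraries a group, all of which were analysed here. Whether 2 libraries of a group are from different animals is not labelled, so the spread behind every p-value may be technical.

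Heterotrimeric G proteins carry signals from membrane receptors while their alpha subunit holds GTP. Rgs proteins bind the active alpha subunit and speed up its GTP hydrolysis, which ends the signal and lets alpha rejoin the beta and gamma subunits. Kdm6a and Kdm6b encode enzymes that take a repressive methyl mark off histone H3. In cartilage, receptors of this class include that for parathyroid hormone related protein, which holds back hypertrophy in the growth plate.

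Estimated counts summed to between 31178248 and 32332044 per library. Kdm6b and Kdm6a, the targeted genes, were lower in both knockout libraries: Kdm6b measured 131 and 118 CPM in wild type and 51.4 and 46.2 CPM in knockout, and Kdm6a 52.6 and 56.9 CPM against 28.6 and 31.4 CPM. Counts are of whole genes and not of the deleted exons alone. CPM are counts scaled to a common library size with TMM factors. All 8 markers in the chondrocyte list were listed, with a summed level of 7027 and 7512 FPKM (a level per transcript length and library size) in wild type and 9903 and 10245 FPKM in knockout. Col2a1, the main cartilage collagen, made up most of that sum, and of the 8 markers 2 were higher (Col2a1 and Col9a1), 2 lower (Comp and Matn1) and 4 did not pass. Markers of other cells were present at lower levels. Those of macrophages summed to 114 and 116 FPKM in wild type and 63.9 and 71.6 FPKM in knockout, with 2 lower of 8 tested (Cd14 and Lyz2). Cd14 made up most of that sum, at 74.9 and 76.9 FPKM in wild type and 37.25 and 46.2 FPKM in knockout. The list's median log2 fold change was -0.80, while Mrc1 and Adgre1 had overlapping groups. C1qa and C1qb, with at most 6 counts in a library, lay above wild type in knockout. Markers of endothelial cells summed to 29.4 and 33.0 FPKM against 20.5 and 24.8 FPKM, with 3 lower of 7 tested (Cdh5, Tek and Pecam1). Those of osteoblasts summed to 24.8 and 33.5 FPKM against 15.0 and 23.9 FPKM, with 1 lower of 6 tested. Neutrophil markers summed to 112 and 192 FPKM against 49.7 and 118 FPKM, sums that overlapped, and 0 of 6 tested were called lower. Over all tested genes 5.63% were called lower. In these bulk samples, fewer cells of a type and less RNA per cell cannot be told apart.

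Rgs16, a small Rgs protein of the R4 subfamily that acts on Gi and Gq alpha subunits, was the most abundant member per transcript length. Its mean of 114 FPKM over the 4 libraries ranked 558 of 17575 entries. Rgs2, an R4 protein known for its preference for Gq, followed at a mean of 47.6 FPKM, and Rgs19, of the RZ subfamily and also called GAIP, at 30.5 FPKM. Rgs10, a small R12 protein of Gi signalling, measured 9.93 FPKM. Rgs3, an R4 protein with long and short forms, measured 3.20 FPKM, Rgs12, a large scaffold of the R12 subfamily, 2.46 FPKM and Rgs17, an RZ protein, 1.41 FPKM. Rgs5, an R4 protein used as a marker of pericytes, Rgs4, an R4 protein known from neurons and heart, and Rgs14, an R12 protein with a motif that binds inactive Gi, all averaged under 0.5 FPKM. Neighbours in this order were not all distinct. The ranges over the 4 libraries overlapped between Rgs2 and Rgs19, between Rgs3 and Rgs12, between Rgs5 and Rgs4 and between Rgs4 and Rgs14. They did not overlap between Rgs16 and Rgs2, although in knockout replicate 1 the gap was only that from 66.6 to 63.4 FPKM.

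**Figure D1:**
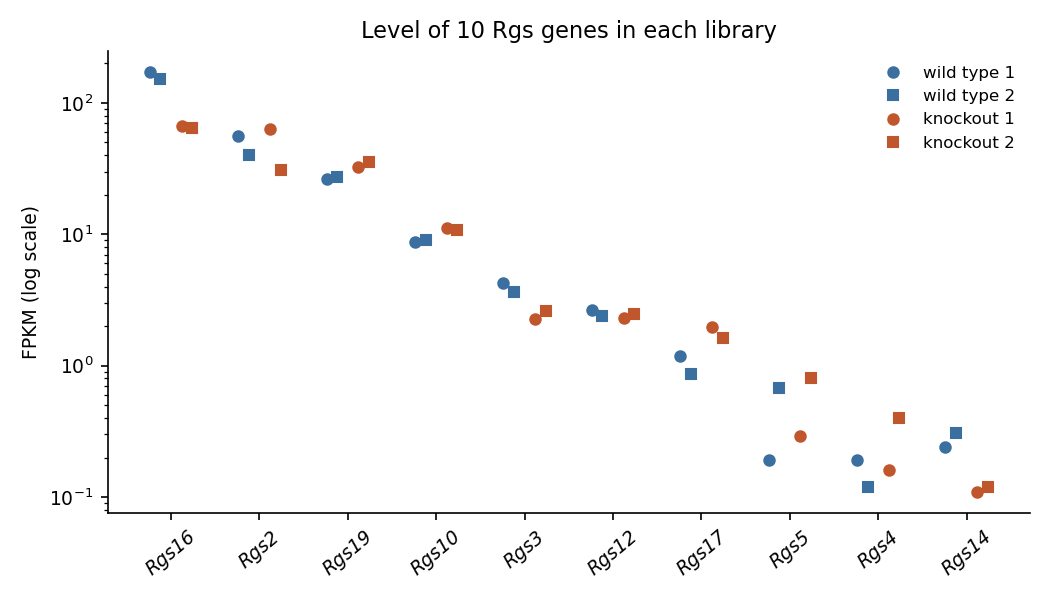
FPKM of the 10 Rgs genes (log axis) in each of the 4 libraries, with wild type in blue, knockout in orange, replicate 1 as circles and replicate 2 as squares. Rgs16 sits at 153 and 173 FPKM in wild type and at 64.7 and 66.6 FPKM in knockout, while the points of Rgs2 mix.

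The stretches of DNA just upstream of the genes are shown for the members that the comparison turns on, Rgs16 and Rgs3 as those lower, Rgs17 as that higher and Rgs2 as that with the widest spread among the abundant members. Each line gives the 250 bases before an annotated transcription start, 5′ to 3′ on the gene's strand, from RefSeq on build GRCm38.p6. The libraries were aligned to mm9, so these coordinates belong to the sequences and not to the counts. Capitals mark matches, on either strand, to 4 motifs that were searched: the cAMP response element TGACGTCA, its shorter form TGACG, which the long form contains, the AP-1 site TGANTCA and the TATA box TATAAA. The Rgs16 window is chr1:153740103-153740352 (plus strand), that of Rgs17 chr10:5922401-5922650 (minus strand) and that of Rgs2 chr1:144004150-144004399 (minus strand). Rgs3 has 2 annotated starts, with windows at chr4:62559597-62559846 and chr4:62619422-62619671 (plus strand).
Rgs16: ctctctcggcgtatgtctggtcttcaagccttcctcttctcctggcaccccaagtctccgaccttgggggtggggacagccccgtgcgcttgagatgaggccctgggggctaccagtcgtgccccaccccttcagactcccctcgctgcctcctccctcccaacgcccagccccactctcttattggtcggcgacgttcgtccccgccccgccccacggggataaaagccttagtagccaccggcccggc
Rgs3, first start: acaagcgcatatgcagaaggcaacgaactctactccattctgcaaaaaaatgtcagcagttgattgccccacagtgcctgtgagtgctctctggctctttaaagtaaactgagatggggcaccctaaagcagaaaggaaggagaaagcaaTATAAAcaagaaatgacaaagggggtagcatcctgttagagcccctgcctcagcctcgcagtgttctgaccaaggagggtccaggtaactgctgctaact
Rgs3, second start: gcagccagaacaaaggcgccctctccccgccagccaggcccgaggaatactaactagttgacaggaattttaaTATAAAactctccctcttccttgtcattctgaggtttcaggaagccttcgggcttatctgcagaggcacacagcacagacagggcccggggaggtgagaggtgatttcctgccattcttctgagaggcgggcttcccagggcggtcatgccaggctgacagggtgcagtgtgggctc
Rgs17: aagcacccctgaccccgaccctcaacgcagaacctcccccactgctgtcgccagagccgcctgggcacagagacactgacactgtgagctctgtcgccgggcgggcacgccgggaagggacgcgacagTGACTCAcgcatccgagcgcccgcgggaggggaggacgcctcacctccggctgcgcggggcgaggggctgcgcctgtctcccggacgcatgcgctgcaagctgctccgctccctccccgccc
Rgs2: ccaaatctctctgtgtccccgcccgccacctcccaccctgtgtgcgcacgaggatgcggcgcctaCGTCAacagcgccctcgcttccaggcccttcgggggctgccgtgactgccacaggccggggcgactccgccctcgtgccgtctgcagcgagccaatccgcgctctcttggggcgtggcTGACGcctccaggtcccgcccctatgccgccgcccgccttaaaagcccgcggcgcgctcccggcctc

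The window of Rgs16 held none of the 4 motifs. It held 17 CG pairs, a ratio of observed to expected CG of 0.659 and 66.4% G and C, where the median of all 32851 windows of this length was 0.374 and 52.4%. Those of Rgs17 and Rgs2 were richer in CG, with 27 and 30 pairs and ratios of 0.835 and 0.960. The windows of Rgs3 held 3 and 7 CG pairs, where the median of all windows was 6, with ratios of 0.205 and 0.347. In this ratio the genes called lower thus lay on both sides of the median, the second window of Rgs3 close to it. Rgs17 held 1 AP-1 match, found in 6.75% of all windows, with its first letter 122 bases before the start. Rgs2 held 2 matches to the shorter cAMP element, found in 17.8% of all windows, 185 and 67 bases before the start. Each Rgs3 window held 1 TATA box match, found in 12.4% of windows, 100 and 177 bases before the start. The long cAMP element, found in 1.55% of windows, was in none of the 13 windows of the 9 members that RefSeq's table lists. A match describes letters and shows no binding.

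The comparison of knockout with wild type gave 1 member that was higher, 2 that were lower and 7 that did not pass at an adjusted p under 0.05 (edgeR quasi-likelihood test with Benjamini-Hochberg adjustment over 13773 genes). Of all tested genes 9.25% were called, 5.63% lower and 3.62% higher, so lower genes were 60.9% of those called, against 47.4% with limma on FPKM values, where the median log2 fold change of all genes was 0.05. Nothing is read from the members' count, since the same contrast was known when they were chosen. All 10 passed the filter on low counts. The median log2 fold change of the members was 0.10, against 0.0044 over all tested genes. In 3 members both knockout libraries lay below both wild type libraries and in 3 they lay above, and in the other 4 the groups overlapped. Over all tested genes 61.7% had groups that did not overlap.

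**Figure D2:**
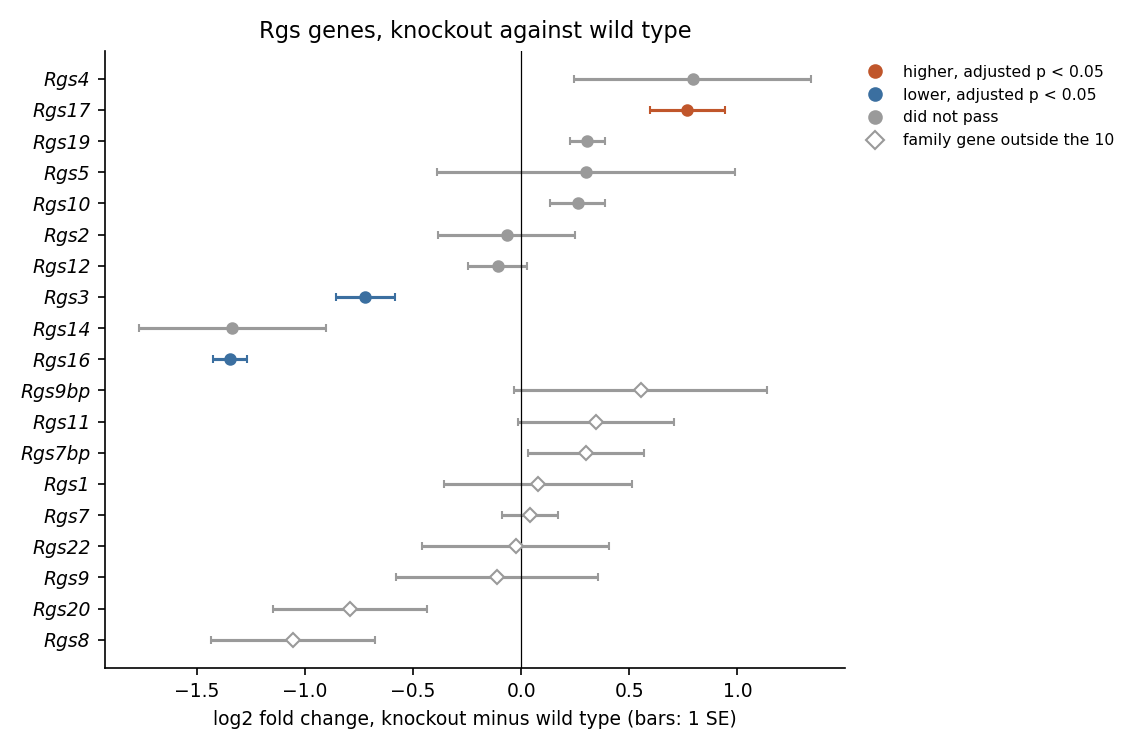
Log2 fold change, knockout minus wild type, with bars of 1 SE from edgeR, for the 10 Rgs genes (filled circles) and 9 further genes (open diamonds). The 9 are the other tested genes whose symbol begins with Rgs, Rgs7bp and Rgs9bp among them. Rgs16 at -1.35 and Rgs3 at -0.72 are called lower and Rgs17 at 0.77 higher, while the low genes Rgs4, Rgs5 and Rgs14 have wide bars.

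Rgs16 showed the largest fall among the members called. Its wild type libraries held 12826 and 11213 counts and its knockout libraries 5060 and 4899, or 406 and 369 CPM against 154 and 150 CPM. Both knockout libraries were far below both wild type libraries, and the replicates of each group lay close together. The mean fell from 387 ± 26 to 152 ± 2.9 CPM (SD, n = 2 each), which is 2.54-fold lower (log2 fold change -1.35, SE 0.080, edgeR adjusted p = 0.0015). In the authors' deposited table Rgs16 had a log2 fold change of -1.33 and an adjusted p of 7.34e-39. Leaving out wild type replicate 1 or 2 gave log2 fold changes of -1.28 and -1.41 with edgeR adjusted p of 0.0936 and 0.158, where no gene of the whole table passed. DESeq2 called Rgs16 lower in all 4 fits that left out a library. The summed markers of macrophages, endothelial cells and osteoblasts, given above, were also lower in both knockout libraries. Their part in the fall of Rgs16 was not tested.

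Rgs3 was the other member called lower. It measured 16.1 and 14.2 CPM in the wild type libraries and 8.54 and 9.85 CPM in the knockout libraries. The groups did not overlap, and the gap between them was wider than the distance between replicates. From 15.1 ± 1.4 to 9.20 ± 0.92 CPM (SD, n = 2 each) it was 1.65-fold lower (log2 fold change -0.72, SE 0.13, edgeR adjusted p = 0.0267). The authors' deposited table gave Rgs3 a log2 fold change of -0.69 with an adjusted p of 0.00379. The call was lost without wild type replicate 1 (log2 fold change -0.62, edgeR adjusted p = 0.144), without wild type replicate 2 (-0.80, edgeR adjusted p = 0.198) and without knockout replicate 1 (-0.62, edgeR adjusted p = 0.0548). The counts sum over 3 transcripts, so long and short forms of Rgs3 are not told apart.

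Rgs2 had the widest spread of the abundant members. It measured 169 and 125 CPM in the wild type libraries and 189 and 91.8 CPM in the knockout libraries. The knockout libraries held both the highest and the lowest value, so the groups overlapped fully. The knockout replicates differed by 1.04 on the log2 scale, more than 99.0% of tested genes, and the wild type replicates by 0.44, more than 92.0%. In both groups replicate 1 was the higher. The means were 147 ± 31 and 140 ± 69 CPM (SD, n = 2 each), with a log2 fold change of -0.07 (SE 0.32; adjusted p of 0.911 in edgeR). The direction rested on single libraries. Without knockout replicate 1 Rgs2 was called lower (log2 fold change -0.68, edgeR adjusted p = 0.0282), and without knockout replicate 2 or wild type replicate 1 its log2 fold change was 0.37 or 0.17. Rgs2 is known as a gene that responds quickly to cAMP and calcium signals, and the early targets of those signals are given below.

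Rgs4 and Rgs5, which stand next to each other on chromosome 1, were near the limit of these counts. Rgs4 had 18 and 11 counts in wild type and 15 and 38 counts in knockout. Rgs5 had 11 and 38 counts in wild type and 17 and 47 counts in knockout. For both genes the highest value was in knockout replicate 2 and the groups overlapped. Summed over a group, Rgs4 had 29 counts in wild type (95% exact Poisson interval 19.4 to 41.6) and 53 in knockout (39.7 to 69.3), intervals that cover counting error only. For Rgs5 the sums were 49 (36.3 to 64.8) and 64 (49.3 to 81.7). The log2 fold changes were 0.79 (SE 0.55) for Rgs4 and 0.30 (SE 0.69) for Rgs5, and neither passed (edgeR adjusted p = 0.376 and 0.805). Without knockout replicate 2 they were -0.02 and -0.60. Markers of pericytes and smooth muscle, all 10 of them listed, summed to 192 and 205 FPKM in wild type and 242 and 258 FPKM in knockout, with 1 higher (the actin gene Acta2) and 9 not passing. Cspg4 made up most of that sum, at 162 and 171 FPKM in wild type and 165 and 181 FPKM in knockout. Acta2 went from 18.95 and 23.18 FPKM to 66.17 and 65.1 FPKM, and the list's median log2 fold change was 0.05. Markers of skeletal muscle, all 4 listed, summed to 4.20 and 3.48 FPKM in wild type, 2.43 FPKM in knockout replicate 1 and 11.2 FPKM in knockout replicate 2, the library where Rgs4 and Rgs5 were highest. Of the muscle markers 3 were tested and 0 passed in edgeR, 0 at an unadjusted p under 0.05 and 0 in DESeq2. Their part in these values was not tested.

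Of the RZ subfamily, whose members act mainly on Gi and Gz, Rgs17 was called higher. Rgs17 measured 9.71 and 7.37 CPM in the wild type libraries and 15.9 and 13.2 CPM in the knockout libraries. Both knockout values were above both wild type values. From 8.54 ± 1.7 to 14.6 ± 1.9 CPM (SD, n = 2 each) it was 1.70-fold higher (log2 fold change 0.77, SE 0.17, edgeR adjusted p = 0.0446). The authors' deposited table gave Rgs17 a log2 fold change of 0.74 with an adjusted p of 0.00847. The call was close to the threshold and was lost without a filter on low counts (log2 fold change 0.78, edgeR adjusted p = 0.0804), in limma on the FPKM values (0.47, adjusted p = 0.0789) and without wild type replicate 1 (0.98), wild type replicate 2 (0.59) or knockout replicate 1 (0.63), with edgeR adjusted p of 0.123, 0.257 and 0.0872.

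Rgs19 lay higher in knockout without passing. It measured 39.2 and 41.0 CPM in the wild type libraries and 47.4 and 51.7 CPM in the knockout libraries, and the groups did not overlap. Its log2 fold change was 0.31 (SE 0.081, edgeR adjusted p = 0.066), a ratio of 1.24. The log2 fold change kept its sign in all 17 alternatives, between 0.25 and 0.37, and passed in 1 of them, the fit with the replicate number as a block (adjusted p of 0.033 in edgeR). Rgs20, the third gene of this subfamily, which was not among the 10, measured 1.99 and 1.19 CPM in wild type and 0.854 and 0.982 CPM in knockout (log2 fold change -0.79, SE 0.35, edgeR adjusted p = 0.196). None of the 3 had groups that overlapped, with knockout above wild type for Rgs17 and Rgs19 and below it for Rgs20. Groups that did not overlap were also found for 61.7% of all tested genes, so nothing is read from this count.

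Of the R12 subfamily none passed. Rgs10 measured 7.46 and 7.90 CPM in the wild type libraries and 9.31 and 9.11 CPM in the knockout libraries. These values did not overlap, with a log2 fold change of 0.26 (SE 0.13; adjusted p of 0.226 in edgeR). Rgs12 measured 11.3 and 10.1 CPM in the wild type libraries and 9.28 and 10.6 CPM in the knockout libraries, with overlapping groups and a log2 fold change of -0.11 (SE 0.14; adjusted p of 0.633 in edgeR). Rgs14 was barely present, with 18 and 23 counts in wild type and 8 and 9 counts in knockout. Summed over a group, that is 41 counts (95% exact Poisson interval 29.4 to 55.6) against 17 (9.90 to 27.2). Its groups did not overlap and its log2 fold change was as large as that of Rgs16, at -1.34, but with an SE of 0.43 it did not pass (edgeR adjusted p = 0.104). No alternative that tested Rgs10, Rgs12 or Rgs14 called it.

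The make-up of the family changed with the fall of Rgs16. Wild type libraries had a summed level of the 10 genes of 273 and 238 FPKM, and knockout libraries one of 181 and 150 FPKM. Rgs16 made up 63.3% and 64.4% of this sum in wild type and 36.8% and 43.2% in knockout. The share of Rgs19 went from 9.70% and 11.5% to 18.0% and 23.7%, and that of Rgs10 from 3.22% and 3.81% to 6.13% and 7.22%. The share of Rgs2 was 20.6% and 16.9% in wild type and 35.0% and 20.5% in knockout, with the lower knockout value within the wild type range. Shares of a sum are bound to each other, and the shares of Rgs19 and Rgs10 gained more than their own levels did.

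**Figure D3:**
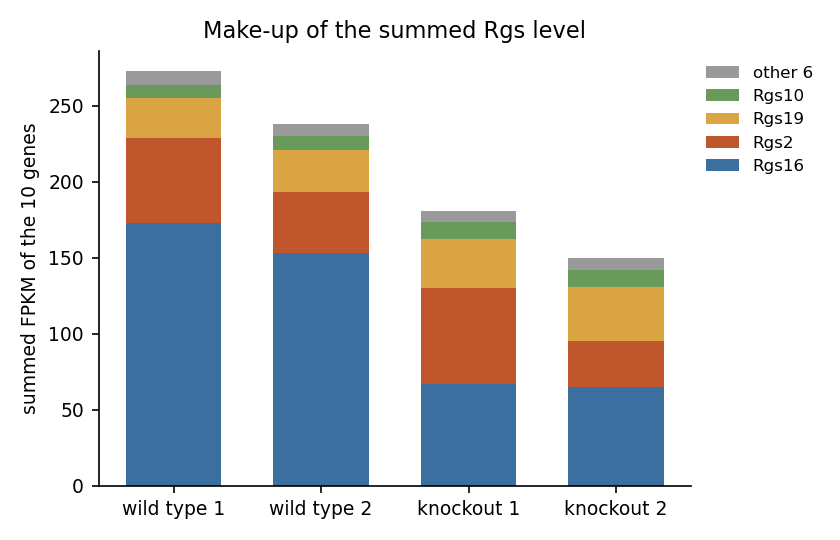
Summed FPKM of the 10 Rgs genes in each of the 4 libraries, stacked by gene, with the 6 least abundant together in grey. The sum is 273 and 238 FPKM in wild type and 181 and 150 FPKM in knockout, and the Rgs16 segment shrinks most.

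The other 10 numbered genes of the family were mostly at low levels, and none passed in edgeR or DESeq2. Of these, 7 were tested, 1 of them (Rgs8) at an unadjusted edgeR p under 0.05, beside 4016 of all 13773 tested genes. Another 3 did not reach the filter, namely Rgs18, Rgs13 and Rgs6, with at most 9 counts in any library. Rgs7, of the R7 subfamily that works in a complex with the beta subunit Gnb5, was at a level near that of Rgs3, with 3.76 to 4.19 FPKM over the 4 libraries. In CPM it measured 9.14 and 10.4 CPM in wild type and 10.1 and 10.0 CPM in knockout (log2 fold change 0.04, SE 0.13, edgeR adjusted p = 0.862). Its R7 relatives Rgs9 and Rgs11 measured between 0.506 and 1.02 CPM in all 4 libraries. Rgs8, of the R4 subfamily, had 58 and 72 counts in wild type and 22 and 44 counts in knockout, which did not overlap (log2 fold change -1.05, SE 0.38, edgeR adjusted p = 0.129). Rgs1, known from lymphocytes, had 11 to 16 counts and Rgs22 11 to 18 counts.

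Several of these genes stand side by side on chromosome 1, by the gene order of RefSeq. Rgs16 lies beside Rgs8, and both had knockout values below wild type, with Rgs8 not passing. Further out, Npl had a log2 fold change of -0.04 (SE 0.28) and Rgsl1 at most 1 count. Rgs2 lies beside Rgs13 and Rgs1, which had at most 16 counts in a library, where Rgs2 had 2991 to 6183. On its other side Uchl5 and Ro60 were at 35.9 to 78.6 CPM and did not pass. Over the 2 nearest protein-coding genes on each side of the 10 members, 24 of 36 distinct neighbours were tested. Of the 24, 3 were called, all lower and Bag3 and Dok7 among them, beside 9.25% of all tested genes called and 5.63% called lower.

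The partners of the Rgs proteins were read beside the 9.25% of all tested genes called, the 3.62% called higher and the 5.63% called lower. Of 13 tested G alpha genes 2 were higher and 11 did not pass, with a median log2 fold change of 0.10. Gna14, of the Gq class, had 217 and 222 counts in wild type and 459 and 631 counts in knockout (log2 fold change 1.24, SE 0.18, edgeR adjusted p = 0.013). Gnai1, a Gi gene on whose product most Rgs proteins act, had, on the log2 scale, a fold change of 0.52 (SE 0.099, adjusted p = 0.0277 in edgeR). Gnas, the Gs gene, on which Rgs proteins are not known to speed GTP hydrolysis, was the most abundant at 483 to 585 FPKM and did not pass. Of 14 tested beta and gamma genes 2 were higher and 12 did not pass. The higher ones were Gng7 (log2 fold change 0.87, SE 0.16) and Gnb5, the partner of the R7 subfamily (0.62, SE 0.13). Among 15 other proteins with an RGS domain, 1, the receptor kinase gene Grk4, was lower (log2 fold change -0.43, SE 0.085, edgeR adjusted p = 0.0316) and 14 did not pass. Of 12 tested effector genes, adenylyl cyclases and phospholipases C beta, 0 passed in edgeR and 0 in DESeq2. In edgeR 3 of them had an unadjusted p under 0.05, all lower. Over all 13773 tested genes 4016 had such a p, 2114 of them lower, and nothing is read from the 3. Of 5 other regulators 0 passed in edgeR and 0 in DESeq2, and 1 had an unadjusted p under 0.05.

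Among receptors and cAMP-related genes, the edgeR calls were lower in knockout. They were read beside the 5.63% of all tested genes called lower. Of 47 tested receptor genes of a list of 59, 6 were lower and 41 did not pass, with a median log2 fold change of -0.31. DESeq2 called 8 of them lower and 1 higher. S1pr3, a receptor for the lipid sphingosine phosphate, had 313 and 354 counts in wild type and 141 and 125 counts in knockout (log2 fold change -1.40, SE 0.16, edgeR adjusted p = 0.00714). Bdkrb2, the bradykinin receptor, and Calcrl, a receptor for calcitonin gene related peptide, had log2 fold changes of -1.39 and -0.99 (SE 0.18 and 0.14). Also called were Adra2a, an adrenergic receptor (-1.22, SE 0.25), and Ednrb, an endothelin receptor (-0.49, SE 0.11). Calcrl is also a gene of endothelial cells, whose summed markers were lower in the same libraries as given above, and their part was not tested. Of 15 tested phosphodiesterase genes 2 were lower and 13 did not pass. The lower ones were Pde8a and Pde10a, which encode enzymes that break down cyclic nucleotides (log2 fold changes -0.76 and -0.54, SE 0.075 and 0.12). Of 15 early targets of cAMP and calcium signals 3 were lower and 12 did not pass. The lower ones were Btg2, Atf3 and Fosb (log2 fold changes -0.81, -0.90 and -0.55, SE 0.10, 0.14 and 0.10), and the list's median was -0.39, where that over all tested genes was 0.0044. Without either wild type replicate 1 or wild type replicate 2 none of these calls was made by edgeR, as no gene passed.

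**Figure D4:**
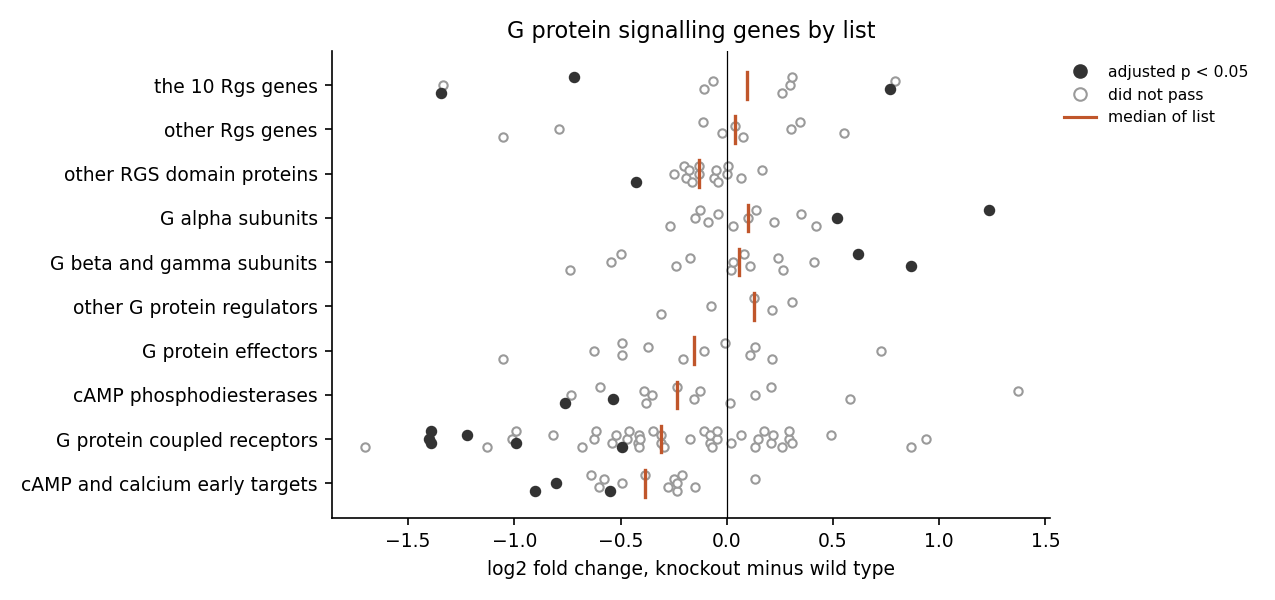
Log2 fold change, knockout minus wild type, of each tested gene in the lists of G protein signalling, with genes past an adjusted p of 0.05 filled and the median of each list as an orange bar. Called genes lie on the right for the subunit lists and on the left for receptors, phosphodiesterases and early targets, and the 10 Rgs genes have both.

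The spread over alternative fits differed among the members. Every alternative refits the same libraries, so a narrow range is not independent support. Over 17 alternatives the log2 fold change of Rgs16 stayed between -1.41 and -1.27 and passed in 14. That of Rgs3 stayed between -0.82 and -0.52 and passed in 10, and that of Rgs17 between 0.47 and 0.99 and passed in 7. Rgs2 ran from -0.68 to 0.37, Rgs5 from -0.61 to 1.50 and Rgs4 from -0.02 to 1.32, with both signs for each.

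**Figure D5:**
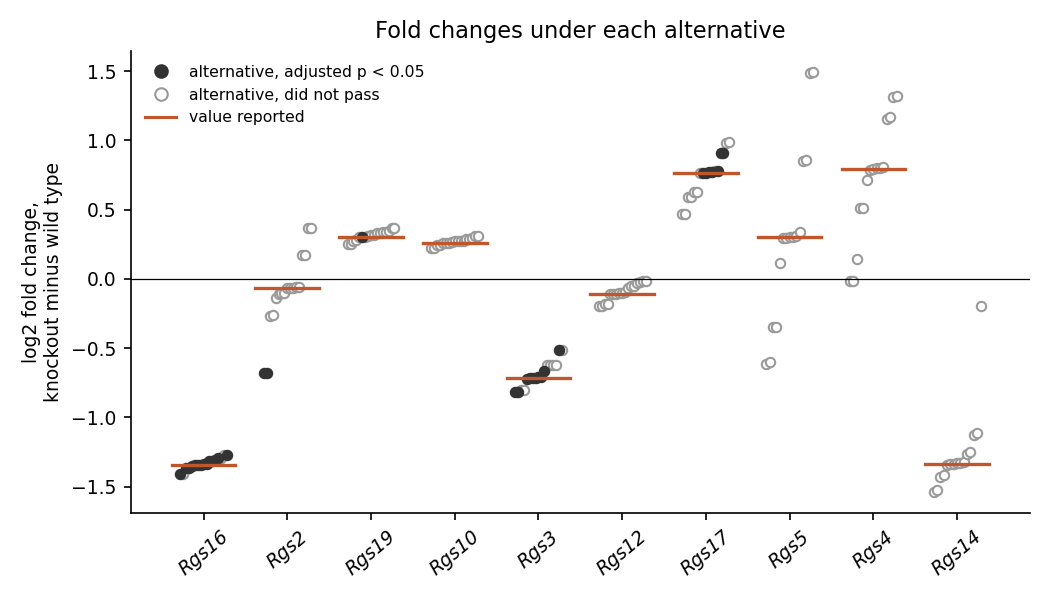
Log2 fold change, knockout minus wild type, of each of the 10 Rgs genes under each alternative fit that tested it. Points are filled where the adjusted p was under 0.05, and the value reported is an orange bar. Rgs16 stays between -1.41 and -1.27, whereas Rgs2, Rgs5 and Rgs4 cross 0.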

How the data were processed

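RNA-seq tables of 4 libraries were used, with groups and replicate numbers from the sample titles. The submitters' processing notes name Bowtie2 2.2.5 and build mm9. The counting tool, its annotation and its strand setting were not given in the sources used here. Each library's deposited table holds, per the file headers, FPKM and expected counts by gene. A DESeq2 table that the authors deposited holds a signal (mean normalized count) per group, log2 fold changes and raw and adjusted p-values. A gene not listed in a library was taken as 0. 26 entries named by a transcript (0.0271% of counts) stayed in the fit.

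Rounded expected counts entered edgeR 4.0.16 under R 4.3.3 (filterByExpr, TMM, quasi-likelihood F test, Benjamini-Hochberg adjustment over 13773 genes, called under 0.05). An SE is the log2 fold change divided by the root of F. Alternatives used DESeq2 1.42.0 and limma 3.58.1, the last on log2(FPKM + 1) or log2(FPKM + 0.1) for genes with a mean of at least 1 FPKM or with no filter. The edgeR and DESeq2 steps were tested on simulated data. Depth was 31178248 to 32332044 counts per library. Replicates differed by more than counting noise (mean chi-square of a gene 20.2 between the wild type and 22.1 between the knockout libraries), so each counts as 1.

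The members, lists and tests were chosen with earlier results of these data known. All members and all listed Rgs genes were named, with up to 4 genes of each pathway list by smallest p, except for items not reported here. Npl, Uchl5, Ro60, Bag3, Dok7, Gnas, Adra2a, Ednrb, Cspg4, Cd14, Lyz2, Mrc1, Adgre1, C1qa and C1qb were named after their values were seen. 17518 gene numbers matched RefSeq's gene table of GRCm38.p6, used for names and gene order. Promoter windows were matched by symbol for 9 of 10 members.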

Additional observations from a re-analysis of the deposited data

How the results depend on the processing

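The 10 members were called as 1 higher and 2 lower, beside 1274 genes in all. No filter on low counts left 720 genes and 0 members higher. With limma on FPKM, 1068 genes (log2 of FPKM + 1) and 1039 genes (FPKM + 0.1) passed with 0 members higher, and the share of lower among called genes was 47.4% and 47.5% there against 60.9% in edgeR. Limma with no filter called 0 genes, with 4107 at an unadjusted p under 0.05, and so 0 members in either direction (Rgs16 adjusted p = 0.0613). The cause was not tested. Leaving out single libraries, edgeR called from 0 to 1275 genes, 0 to 1 members higher and 0 to 2 lower. Without knockout replicate 1 the 2 lower were Rgs16 and Rgs2. The 2 fits without a wild type library, which leave 1 wild type sample assumed to vary like the knockout, called 0 genes in edgeR, with 3442 and 2587 at an unadjusted p under 0.05. DESeq2 in those 4 fits, added after seeing the data, called 540, 416, 659 and 793 genes, with 0 or 1 members higher and 1 or 2 lower.

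Signs turned for 3 members, none of them called where its sign turned. Over fits that left out 1 library, Rgs2 ran from -0.68 (without knockout replicate 1) to 0.37 (without knockout replicate 2) in edgeR, with 0.17 when wild type replicate 1 was left out. DESeq2 gave 0.17 and 0.37 in the latter fits. Rgs5 ran from -0.60 to 1.49 in edgeR, with -0.35 (both tools) without wild type replicate 1 and -0.61 in DESeq2 without knockout replicate 2. Rgs4 ran from -0.0181 to 1.31 in edgeR, with -0.0163 in DESeq2, the low values again without knockout replicate 2. RLE and upper-quartile scaling, DESeq2 and summed transcript entries made the same 3 calls as reported.

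With the replicate number as a block, 2316 genes passed, with 2 members higher (Rgs17 and Rgs19) and 2 lower. Samples with the same number deviated together with a correlation of 0.15 across 10595 genes, and with 2 pairs and no label of a shared animal or day the numbers were not taken to pair the libraries. Depth limits Rgs4, Rgs5 and Rgs14, which had 8 to 47 counts per library.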

Other observations

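The deposited tables give a length per gene and library, which for genes with several transcripts differs between libraries. For Rgs12, with 2 transcripts, it was 4248 and 4116 bases in wild type and 4033 and 4322 bases in knockout, so the groups overlapped. For Rgs19, with 7 transcripts, it ran from 1476 to 1495 bases, and for Rgs17, with 2, from 8121 to 8157 bases. The FPKM values of Rgs19 and Rgs17 are therefore little moved by a change of length. Those of Rgs12 are moved more, as its knockout libraries were at 9.28 and 10.6 CPM but at 2.32 and 2.47 FPKM. Among neighbours of the members, Dok7, an adaptor of the neuromuscular junction that lies close to Rgs12, had 63 and 73 counts in wild type and 26 and 33 counts in knockout (log2 fold change -1.28, SE 0.28, edgeR adjusted p = 0.0423), while Rgs12 itself did not pass. Bag3, a co-chaperone gene close to Rgs10, measured 221 and 212 CPM in wild type and 161 and 152 CPM in knockout (log2 fold change -0.46, SE 0.073, edgeR adjusted p = 0.0163), while Rgs10 lay higher in knockout without passing.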
